A study of Mus musculus with 830 samples.

Results

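The insulin genes Ins1 and Ins2 and the amylin gene Iapp were 3 of the 26313 gene rows of a single-cell read count table, taken by symbol, and were described over all 830 cells of the series. The cells came from endoderm and gut of mouse embryos (strain C57BL/6XC3H), dissociated with trypsin, stained for EpCAM and sorted, and were sequenced with Smart-seq3xpress, a plate-based method that gives 1 library per cell. There were 171 HM cells (genotype Ngn3-GFP/GFP, both alleles carrying the GFP reporter), 333 Ngn3Cre cells (Ngn3-Cre; Ai6, where Ai6 is a fluorescent reporter switched on by Cre) and 326 HZ cells (Ngn3-GFP/+, 1 reporter allele). All reporters were driven through Ngn3, the gene of the endocrine progenitor factor Neurog3. Embryos were staged by somite number, at 15, 18, 21, 24 and 27 somites. The labels name neither the embryo nor the plate of a cell, and the sources used here do not give the reporter gate.

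Cells of 1 genotype and stage were therefore summed into 14 pools. Tests used the 11 pools with 10 cells or more, namely HM at 15, 18, 21 and 24 somites (16, 17, 54 and 80 cells), Ngn3Cre at 21, 24 and 27 somites (106, 155 and 69 cells), and HZ at 18, 21, 24 and 27 somites (61, 149, 85 and 26 cells). HM at 27 somites had 4 cells, Ngn3Cre at 18 somites 3 and HZ at 15 somites 5, and these pools are described only. Cells held 1400 to 2525083 reads, with a median of 626967 in HM, 465918 in Ngn3Cre and 378157 in HZ, and 117 cells held under 100000. Epcam, the epithelial surface protein used for staining, was at or above 10 CPM (a gene's reads scaled to the total of its cell) in 766 of 830 cells. Neurog3 averaged 9.04 ± 2.17 CPM in HM pools (SD, n = 4), 298 ± 221 CPM in Ngn3Cre pools (n = 3) and 108 ± 28.4 CPM in HZ pools (n = 4), after TMM scaling between pools.

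Insulin is the beta cell hormone that lowers blood glucose. Rats and mice carry a pair of insulin genes: Ins2 is the ancestral gene with homologs across mammals, and Ins1 arose from it as a retroposed copy. Iapp encodes amylin, a peptide stored and secreted with insulin, while glucagon, encoded by Gcg, is the hormone of alpha cells. In the early embryo the first endocrine cells of the pancreatic bud are known to express glucagon, some of them together with insulin, before the main wave of beta cell formation.

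Stretches of the Ins1 and Ins2 coding sequences are shown because the genes differ little, which bears on how reads are assigned to each. In GRCm38 with the GENCODE vM21 annotation, Ins1 (ENSMUSG00000035804.5) lies on the plus strand of chromosome 19 from 52264297 to 52265476, and Ins2 (ENSMUSG00000000215.11) on the minus strand of chromosome 7 from 142678656 to 142743381. Iapp (ENSMUSG00000041681.2) lies on the plus strand of chromosome 6 from 142298423 to 142303961, inside Slco1a5 on the opposite strand, but 0 of its 974 exon bases are in an exon of Slco1a5. The first pair of lines gives the 150 coding bases with the most differences, 15 in number, which are in capitals. The last line gives the longest identical run, at the 3' end of both coding sequences.
Ins1, GRCm38 chr19:52264632-52264781, plus strand: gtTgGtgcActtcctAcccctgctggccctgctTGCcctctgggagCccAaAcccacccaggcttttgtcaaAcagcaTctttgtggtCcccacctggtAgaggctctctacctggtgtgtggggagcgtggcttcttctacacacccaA
Ins2, GRCm38 chr7:142679376-142679525, minus strand: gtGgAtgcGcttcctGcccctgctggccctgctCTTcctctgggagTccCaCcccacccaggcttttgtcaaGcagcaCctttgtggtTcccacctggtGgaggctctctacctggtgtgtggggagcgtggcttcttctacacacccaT
Ins1 at chr19:52264894-52264947, plus strand, and Ins2 at chr7:142678716-142678769, minus strand: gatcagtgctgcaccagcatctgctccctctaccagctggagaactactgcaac
Of the 324 aligned coding bases, 300 were identical (92.6%), 24 differed, and Ins2 held 6 bases more. The longest identical run was 54 bases. Of the stretches of 50 bases along the Ins1 transcript, 7 of 1013 also occurred in the Ins2 transcript, and at lengths of 75 and 100 bases 0 did. The sources used here give neither the read length nor the treatment of reads that match both genes, so a small number of reads may be assigned to the other copy.

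RefSeq promoters (GRCm38.p6, 250 bases before to 50 after the annotated start) were at hand for Ins1 and Iapp. They are shown for CATCTG, the letters of the E boxes through which bHLH factors such as Neurod1 act on the rodent insulin promoter. Capitals mark this motif.
Ins1 before the start, chr19:52264047-52264296, plus strand: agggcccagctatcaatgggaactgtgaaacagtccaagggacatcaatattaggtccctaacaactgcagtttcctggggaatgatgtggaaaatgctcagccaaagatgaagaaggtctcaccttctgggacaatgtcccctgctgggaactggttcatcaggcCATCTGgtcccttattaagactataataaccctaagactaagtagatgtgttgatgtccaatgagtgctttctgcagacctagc
Ins1 after the start, chr19:52264317-52264346, plus strand: ctgcagcttcagcccctctggcCATCTGcc
Iapp before the start, chr6:142298175-142298424, plus strand: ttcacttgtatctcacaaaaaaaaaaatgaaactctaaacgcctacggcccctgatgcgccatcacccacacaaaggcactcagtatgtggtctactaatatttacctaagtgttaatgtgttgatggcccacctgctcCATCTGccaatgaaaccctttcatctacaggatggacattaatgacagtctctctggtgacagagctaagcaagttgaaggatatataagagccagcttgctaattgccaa
CATCTG, or CAGATG on the other strand, was found 2 times in the Ins1 window and 1 time in the Iapp window, and 17.2% of 32851 RefSeq windows of this length held it. The longer form GCCATCTG, which contains CATCTG, was found 2 times in Ins1 and 0 times in Iapp, against 1.32% of all windows that held it. TAAT, the core of sites for homeodomain factors such as Pdx1, occurred 3 times in the Ins1 window and 5 times in the Iapp window over both strands, and 58.0% of all windows held it.

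Over all 830 cells, Ins2 reached 10 CPM in 289 cells (34.8%), Iapp in 176 (21.2%) and Ins1 in 130 (15.7%). A level of 1000 CPM was rare: 12 cells reached it for Iapp, 10 for Ins2 and 3 for Ins1. In shallow cells it could rest on few reads, down to 2 Ins2 reads in a cell of 1785. All 3 genes passed the filter on low counts in the pools. In the edgeR quasi-likelihood fit of pooled counts over genotype and stage, 1 of the 3 genes, Iapp, fell in HM against HZ, where 1.38% of the 16478 tested genes passed, 1.28% by falling and 0.0971% by rising (Benjamini-Hochberg adjusted p under 0.05). None of the 3 passed in Ngn3Cre against HZ, where 0.267% of genes fell and 0% rose, or for the change per somite, where 0% of genes passed in either direction. At an unadjusted p under 0.05, edgeR gave 2435 genes for HM against HZ, 1922 for Ngn3Cre against HZ and 1377 for the change per somite, and DESeq2, an alternative at the same adjusted threshold, called 1514, 1039 and 353. The labels do not say that pools came from separate litters, so these p-values measure the spread between pools, and in pooled cells fewer expressing cells and less RNA per cell cannot be told apart.

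**Figure D1:**
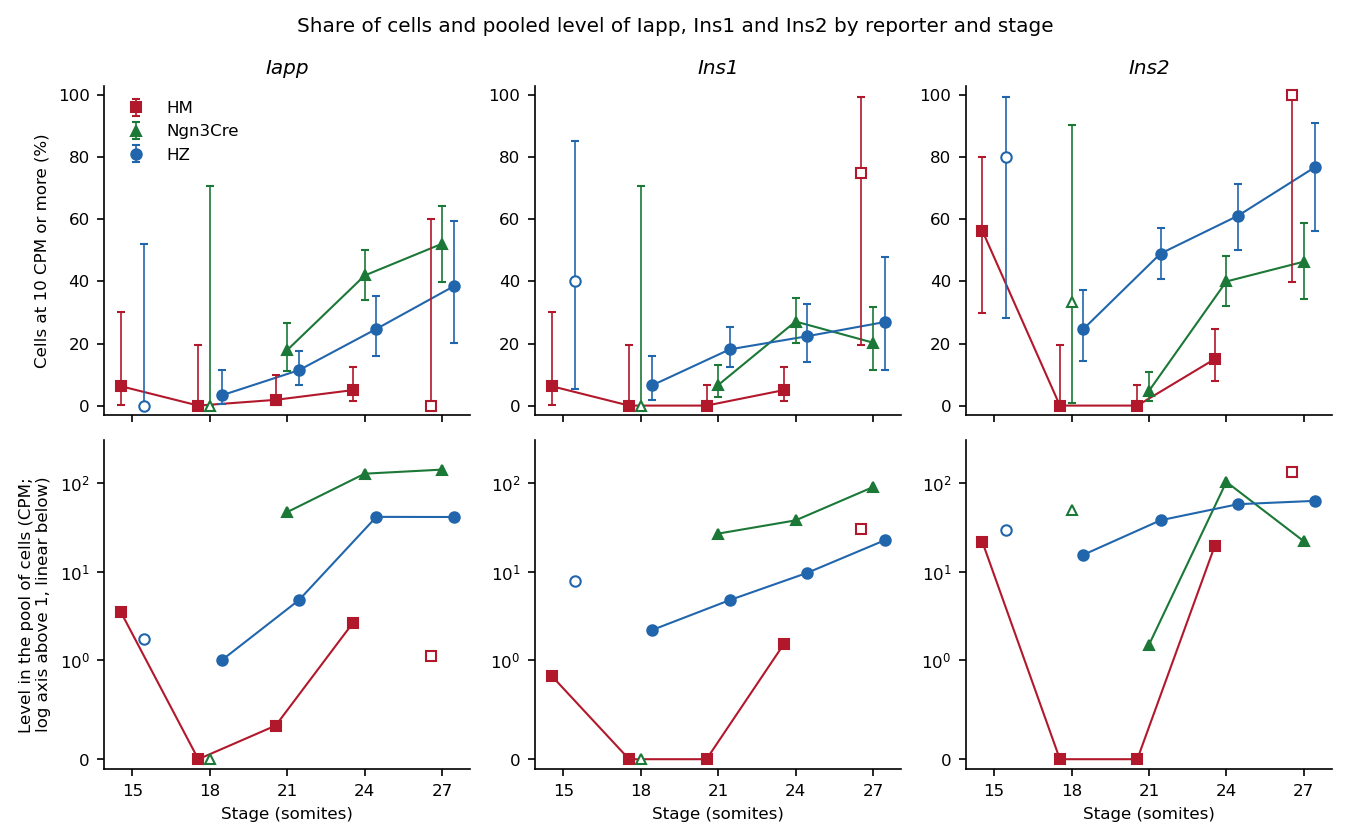
Share of cells at 10 CPM or more (top, percent, with exact 95% binomial intervals over cells) and pooled level (bottom, CPM) of Ins2, Ins1 and Iapp by somite number, for HM, Ngn3Cre and HZ. Open symbols are pools under 10 cells and lines join pools of at least 10 cells. Iapp in HM lies at or below 3.49 CPM at every stage, while Ins2 in HM is at 0 at 18 and 21 somites.

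Ins2 was the insulin gene found in the most cells, and its HM pools were uneven. Its pooled level was 21.3, 0, 0 and 19.3 CPM in HM at 15, 18, 21 and 24 somites, against 15.4, 37.7, 57.2 and 62.4 CPM in HZ at 18, 21, 24 and 27 somites. HM lay below HZ at 18, 21 and 24 somites, and the 2 HM pools at 0 had floors (3 reads) of 0.260 and 0.0786 CPM. Of the Ins2 reads in HM at 24 somites, 67.2% came from 1 cell of 25103 reads, and without it that pool stood at 6.34 CPM. The fitted log2 fold change of Ins2 in HM against HZ was -5.70 ± 1.48 (SE; edgeR adjusted p = 0.123), a value that depends on the prior count because pools were at 0. It did not pass the threshold.

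Ngn3Cre gave no steady order for Ins2. Its pools held 1.49, 102 and 21.9 CPM at 21, 24 and 27 somites, against 37.7, 57.2 and 62.4 CPM in HZ, so Ngn3Cre was lower at 21 and 27 somites and higher at 24. The log2 fold change was -2.61 ± 1.26 (edgeR adjusted p = 0.473). Scaled means were 10.5 ± 12.3 CPM in HM pools, 40.3 ± 51.0 CPM in Ngn3Cre pools and 42.4 ± 20.5 CPM in HZ pools (SD, n = 4, 3 and 4). HZ and Ngn3Cre, neighbours in this order, differed by far less than either spread.

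By share of cells, Ins2 was found most often in HZ. At 10 CPM it was in 9 of 16, 0 of 17, 0 of 54 and 12 of 80 HM cells at 15, 18, 21 and 24 somites (56.3, 0, 0 and 15.0%). By the exact interval the zeros allow shares of up to 19.5% at 18 somites and 6.60% at 21. In Ngn3Cre it was in 5 of 106, 62 of 155 and 32 of 69 cells at 21, 24 and 27 somites (4.72, 40.0 and 46.4%), and in HZ in 15 of 61, 73 of 149, 52 of 85 and 20 of 26 cells at 18, 21, 24 and 27 somites (24.6, 49.0, 61.2 and 76.9%). The HZ share was higher at each later stage, and the Ngn3Cre share was below it at all 3 shared stages. The median level in the positive cells followed another order: 43.7, 110 and 31.6 CPM in Ngn3Cre, against 58.3, 55.6 and 42.4 CPM in HZ, at 21, 24 and 27 somites.

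Ins1 was found in fewer cells, and of the tested pools its highest were those of Ngn3Cre. The pooled level was 0.843, 0, 0 and 1.53 CPM in HM at 15, 18, 21 and 24 somites. It was 26.7, 37.6 and 89.0 CPM in Ngn3Cre at 21, 24 and 27 somites, and 2.20, 4.77, 9.65 and 22.4 CPM in HZ at 18, 21, 24 and 27 somites. Among the tested pools, every Ngn3Cre pool lay above every HZ pool, and every HM pool lay below them. Scaled means were 0.600 ± 0.727 CPM in HM, 49.7 ± 32.2 CPM in Ngn3Cre and 9.59 ± 8.78 CPM in HZ pools (SD, n = 4, 3 and 4).

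Neither Ins1 difference passed over all genes. The log2 fold change was -4.12 ± 0.96 in HM against HZ (SE; edgeR adjusted p = 0.0910) and 2.11 ± 0.78 in Ngn3Cre against HZ (edgeR adjusted p = 0.327). Single cells carried much of the Ngn3Cre level: 76.2% of the Ins1 reads at 21 somites, 36.7% at 24 and 57.2% at 27 each came from 1 cell. Without these cells the Ngn3Cre pools held 6.50, 24.0 and 39.8 CPM, which still exceeded the HZ pools of the same stages (4.77, 9.65 and 22.4 CPM).

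The share of Ins1 cells did not follow the pooled level. At 10 CPM it was 1 of 16, 0 of 17, 0 of 54 and 4 of 80 HM cells at 15, 18, 21 and 24 somites. It was 6.60% (95% interval 2.70 to 13.1%), 27.1% (20.3 to 34.8%) and 20.3% (11.6 to 31.7%) of Ngn3Cre cells at 21, 24 and 27 somites, against 18.1% (12.3 to 25.3%), 22.4% (14.0 to 32.7%) and 26.9% (11.6 to 47.8%) of HZ cells. These exact binomial intervals, here and elsewhere, cover counting error over cells only, and they overlapped at each of the 3 stages. In positive cells the median was 95.4, 50.3 and 80.3 CPM in Ngn3Cre, against 21.7, 24.4 and 49.0 CPM in HZ, so Ngn3Cre was higher at each stage.

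Iapp was the gene of the 3 whose HM level passed the test. Its pooled level was 3.49, 0, 0.341 and 2.66 CPM in HM at 15, 18, 21 and 24 somites. It was 46.7, 126 and 140 CPM in Ngn3Cre at 21, 24 and 27 somites, and 1.00, 4.77, 41.2 and 41.0 CPM in HZ at 18, 21, 24 and 27 somites. Of the pools tested, HM was below HZ at 18, 21 and 24 somites, though the HM pools at 15 and 24 somites exceeded the HZ pool at 18. At 15 somites, where the HZ pool of 5 cells was too small to test, the HM level of Iapp was 3.49 CPM, against 1.74 CPM for HZ. Ngn3Cre was above HZ at 21, 24 and 27 somites, and every tested Ngn3Cre pool exceeded every tested HZ pool.

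The log2 fold change of Iapp in HM against HZ was -4.03 ± 0.48 (SE; edgeR adjusted p = 0.00671), with scaled means of 1.69 ± 1.83 CPM in HM pools and 21.5 ± 21.6 CPM in HZ pools (SD, n = 4 each). HM at 15 somites stands alone at its stage and carries no weight in this contrast, where stage is a factor. For Ngn3Cre against HZ it was 2.21 ± 0.39 (edgeR adjusted p = 0.0696), short of the threshold, with a Ngn3Cre mean of 101 ± 48.1 CPM (n = 3). As with Ins1, single cells weighed heavily: 1 cell gave 73.5% of the Iapp reads of Ngn3Cre at 21 somites and 1 cell gave 51.2% of those of HZ at 24 somites. Without them these pools held 12.5 CPM in Ngn3Cre at 21 somites and 20.2 CPM in HZ at 24.

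Iapp cells were likewise rare in HM. At 10 CPM the gene was in 1 of 16, 0 of 17, 1 of 54 and 4 of 80 HM cells at 15, 18, 21 and 24 somites. It was in 17.9, 41.9 and 52.2% of Ngn3Cre cells at 21, 24 and 27 somites, and in 3.28, 11.4, 24.7 and 38.5% of HZ cells at 18, 21, 24 and 27 somites. The share was higher at each later stage in both, and higher in Ngn3Cre than in HZ at each shared stage. Medians in positive cells were closer: 53.2, 65.2 and 96.8 CPM in Ngn3Cre, against 37.9, 57.4 and 82.2 CPM in HZ.

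The shares stand beside differences in depth. After thinning every cell of 21 and 24 somites to 100000 reads, which left out shallower cells and kept 109 HM, 225 Ngn3Cre and 203 HZ cells, at least 1 read of Ins2, worth 10 CPM, was left in 11.0% of HM, 28.0% of Ngn3Cre and 59.1% of HZ cells. Without thinning, over all 134 HM, 261 Ngn3Cre and 234 HZ cells of these stages, the shares at 10 CPM were 8.96, 25.7 and 53.4%. Thinned shares were 4.59, 24.0 and 21.7% for Ins1 and 4.59, 36.0 and 22.7% for Iapp, against unthinned shares of 2.99, 18.8 and 19.7% for Ins1 and 3.73, 32.2 and 16.2% for Iapp, in HM, Ngn3Cre and HZ. The order of the genotypes was kept for Ins2 and Iapp, while for Ins1 Ngn3Cre and HZ changed places. The thinned and unthinned shares rest on different sets of cells, so they do not show the effect of depth alone.

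Cells with at least 3 of 6 hepatic genes (Afp, Apoa1, Apoa2, Fgb, Fga and Alb) at 100 CPM or more were looked at apart, since liver cells are not known to use these 3 genes. There were 41, with a median of 524422 reads against 452597 over all cells. Iapp was at 10 CPM in 1 of 16 such HM cells, 4 of 7 such Ngn3Cre cells and 0 of 18 such HZ cells. Ins1 and Ins2 were each in 1 of 16, 3 of 7 and 0 of 18. The HM cell with the highest Ins2 level, cell 6 at 24 somites, was 1 of the 16, and 6 of the 7 Ngn3Cre cells also held Gcg, so that these HM and Ngn3Cre cells set no background level. For HZ, 0 of 18 allows up to 18.5% by the exact interval, against shares over all HZ cells of 15.3% for Iapp, 18.1% for Ins1 and 50.3% for Ins2.

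No gene showed a change per somite that passed. In the edgeR fit of somite number with genotype, the log2 change per somite was 0.22 ± 0.15 for Iapp (SE; adjusted p = 0.746), 0.28 ± 0.11 for Ins1 (adjusted p = 0.557) and 0.07 ± 0.19 for Ins2 (adjusted p = 0.958). The HM pool at 15 somites weighed on all 3: without it the values were 0.57 ± 0.11 for Iapp (edgeR adjusted p = 0.0862), 0.41 ± 0.10 for Ins1 (adjusted p = 0.132) and 0.47 ± 0.25 for Ins2 (adjusted p = 0.449).

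**Figure D2:**
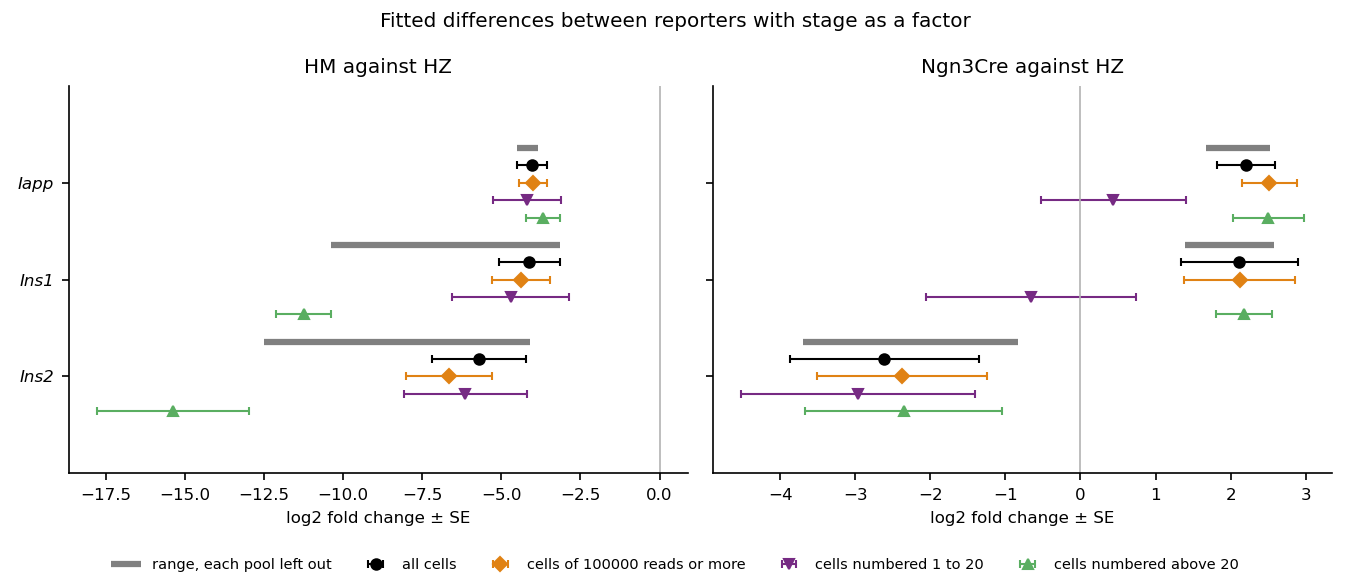
Log2 fold changes of Iapp, Ins1 and Ins2 for HM against HZ and for Ngn3Cre against HZ, with stage as a factor. Black points use all cells, grey bars span the fits that leave out 1 pool each, and coloured points use cells of at least 100000 reads, cells numbered 1 to 20, and cells numbered above 20, all with SE bars. For Iapp in HM against HZ the grey bar runs from -4.52 to -3.83, and for Ins1 in Ngn3Cre against HZ the value for cells 1 to 20 is -0.66, below 0.

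The Iapp difference of HM and HZ passed in each of the 11 edgeR fits that left out 1 pool, with log2 fold changes of -4.52 to -3.83 and adjusted p-values of 0.00335 to 0.0423. Ins1 in HM against HZ ran from -10.39 to -3.14 and passed in 1 of these 11 fits, the one without HM at 24 somites (edgeR adjusted p = 0.00429). Ins2 ran from -12.49 to -4.09 and passed without HZ at 24 somites (edgeR adjusted p = 0.0441). In Ngn3Cre against HZ, Iapp ran from 1.67 to 2.52, Ins1 from 1.39 to 2.57 and Ins2 from -3.69 to -0.83, and no such fit passed. With cells of at least 100000 reads only, Iapp passed in Ngn3Cre against HZ at a log2 fold change of 2.51 (edgeR adjusted p = 0.0404).

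Per transcript length, Ins2 stood above Ins1 in most pools. In the deposited TPM (a scaled level that corrects for transcript length), the pool mean was 228, 0, 0 and 928 TPM for Ins2 and 8.23, 0, 0 and 17.0 TPM for Ins1 in HM at 15, 18, 21 and 24 somites, the 928 TPM resting on the 1 cell described above. In Ngn3Cre it was 14.2, 440 and 96.7 TPM for Ins2 and 27.4, 73.6 and 97.1 TPM for Ins1 at 21, 24 and 27 somites. In HZ it was 57.2, 167, 223 and 181 TPM for Ins2 and 4.19, 10.8, 20.7 and 41.9 TPM for Ins1 at 18, 21, 24 and 27 somites. Ins2 stood above Ins1 in all 4 HZ pools and in both HM pools with reads, whereas in Ngn3Cre Ins1 was the higher at 21 somites and the pair were nearly equal at 27. The Ngn3Cre order at these 2 stages rests on few cells, since 1 cell gave 76.2% of the Ins1 reads at 21 somites and 1 cell 57.2% at 27.

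The genes were also compared cell by cell. Of the cells with Ins1 or Ins2 at 50 TPM or more, Ins1 exceeded Ins2 in 0 of 23 HM cells, 23 of 106 Ngn3Cre cells (21.7%) and 5 of 152 HZ cells (3.29%). Of the Ins1 cells at 10 CPM, 7 of 8 HM, 41 of 63 Ngn3Cre (65.1%, 52.0 to 76.7%) and 56 of 59 HZ cells (94.9%, 85.9 to 98.9%) also held Ins2 at 10 CPM. The Ngn3Cre and HZ intervals did not overlap. Of the Ins2 cells, 28.0% in HM, 41.0% in Ngn3Cre and 34.1% in HZ also held Ins1.

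Iapp was found both with and without the insulin genes. Ins2 was at 10 CPM in 2 of 6 HM, 57 of 120 Ngn3Cre (47.5%) and 40 of 50 HZ (80.0%) Iapp cells, against 14.6, 30.0 and 50.3% of all HM, Ngn3Cre and HZ cells, and Ins1 in 16.7, 32.5 and 36.0% of them. All 3 genes were at 10 CPM in 1 HM, 27 Ngn3Cre and 18 HZ cells. Iapp alone was found in 4 HM, 51 Ngn3Cre and 10 HZ cells, Ins2 alone in 17, 29 and 86, and Ins1 alone in 1, 10 and 3. Ins2 alone was thus the most frequent state in HZ and Iapp alone in Ngn3Cre, among cells with any of the 3. None of the 3 was at 10 CPM in 141 HM, 160 Ngn3Cre and 149 HZ cells.

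Glucagon was more abundant than any of the 3 in the tested Ngn3Cre pools and in HZ from 21 somites on. Ins2 stood above Gcg in HM at 15 and 24 somites and in HZ at 18 somites, at 21.3, 19.3 and 15.4 CPM. Pooled Gcg was 20.4, 1.82, 1.57 and 7.70 CPM in HM at 15, 18, 21 and 24 somites, 3187, 9791 and 10698 CPM in Ngn3Cre at 21, 24 and 27 somites, and 4.36, 161, 2058 and 10233 CPM in HZ at 18, 21, 24 and 27 somites. Most Ngn3Cre and HZ cells positive for one of the 3 genes also held Gcg at 10 CPM. For Iapp this was 2 of 6 HM, 113 of 120 Ngn3Cre (94.2%) and 38 of 50 HZ cells (76.0%), against 23.6, 87.8 and 48.9% of the Iapp-negative cells. For Ins1 it was 75.0, 96.8 and 76.3% of positive cells and 21.5, 88.5 and 47.9% of negative cells, in HM, Ngn3Cre and HZ. For Ins2 it was 64.0, 98.0 and 76.2% of positive cells and 17.1, 86.7 and 29.6% of negative cells. The co-detection with Gcg was thus higher in positive than in negative cells for each gene and genotype.

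The same shares were taken within stages. At 27 somites all 69 Ngn3Cre and all 26 HZ cells held Gcg at 10 CPM, so positive and negative cells could not differ there. At 24 somites Gcg was found in 98.4% of Ins2-positive and 94.6% of Ins2-negative Ngn3Cre cells, and in 90.4% and 45.5% of those HZ cells. At 21 somites it was in 80.0% (4 of 5) and 76.2% of the Ngn3Cre cells and in 68.5% and 28.9% of the HZ cells. The gap for Ins2 was therefore seen at both of these stages in HZ and was narrow in Ngn3Cre.

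Iapp was most frequent in the cells richest in Gcg. Of the cells at 1000 CPM of Gcg or more, Iapp was at 10 CPM in 1 of 2 HM, 69 of 111 Ngn3Cre (62.2%, 52.5 to 71.2%) and 18 of 31 HZ cells (58.1%, 39.1 to 75.5%). At 10 to 100 CPM of Gcg these shares were 3.33% in HM, 14.3% in Ngn3Cre and 14.8% in HZ. Iapp-positive Ngn3Cre cells had a median of 156, 12042 and 2839 CPM of Gcg at 21, 24 and 27 somites, against 26.4, 159 and 139 CPM in Iapp-negative Ngn3Cre cells. In HZ the medians were 25.3, 182 and 34064 CPM in positive and 8.06, 32.2 and 83.8 CPM in negative cells. The median was thus higher in Iapp-positive cells at each of these stages in both genotypes.

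**Figure D3:**
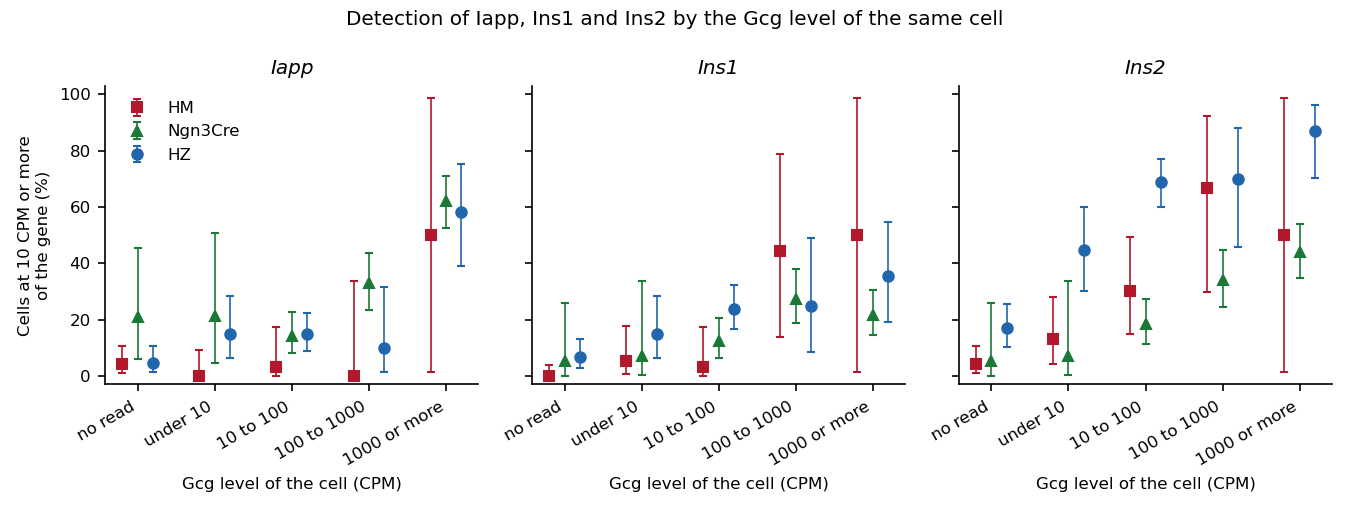
Share of cells (percent, with exact 95% binomial intervals) with Ins2, Ins1 or Iapp at 10 CPM or more, by the cell's Gcg level in 5 classes (none, under 10, 10 to 100, 100 to 1000, and 1000 CPM or more), for HM, Ngn3Cre and HZ. In the highest class Iapp is at 62.2% in Ngn3Cre and 58.1% in HZ, while Ins2 is at 44.1% in Ngn3Cre and 87.1% in HZ.

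In HZ the Ins2 share was higher in each higher class of Gcg, starting at low Gcg levels. Its share in HZ was 17.0% of cells without a Gcg read, 44.7% below 10 CPM, 68.9% at 10 to 100, 70.0% at 100 to 1000 and 87.1% (27 of 31) at 1000 CPM or more. In Ngn3Cre the same classes gave 5.26, 7.14, 18.4, 34.1 and 44.1% (49 of 111), and the HZ share was higher in each class. In HM it was 4.35, 13.2, 30.0, 66.7 and 50.0%, the last 2 classes holding 9 and 2 cells. For Ins1 the highest class gave 24 of 111 Ngn3Cre cells (21.6%) and 11 of 31 HZ cells (35.5%), with overlapping intervals of 14.4 to 30.4% and 19.2 to 54.6%.

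**Figure D4:**
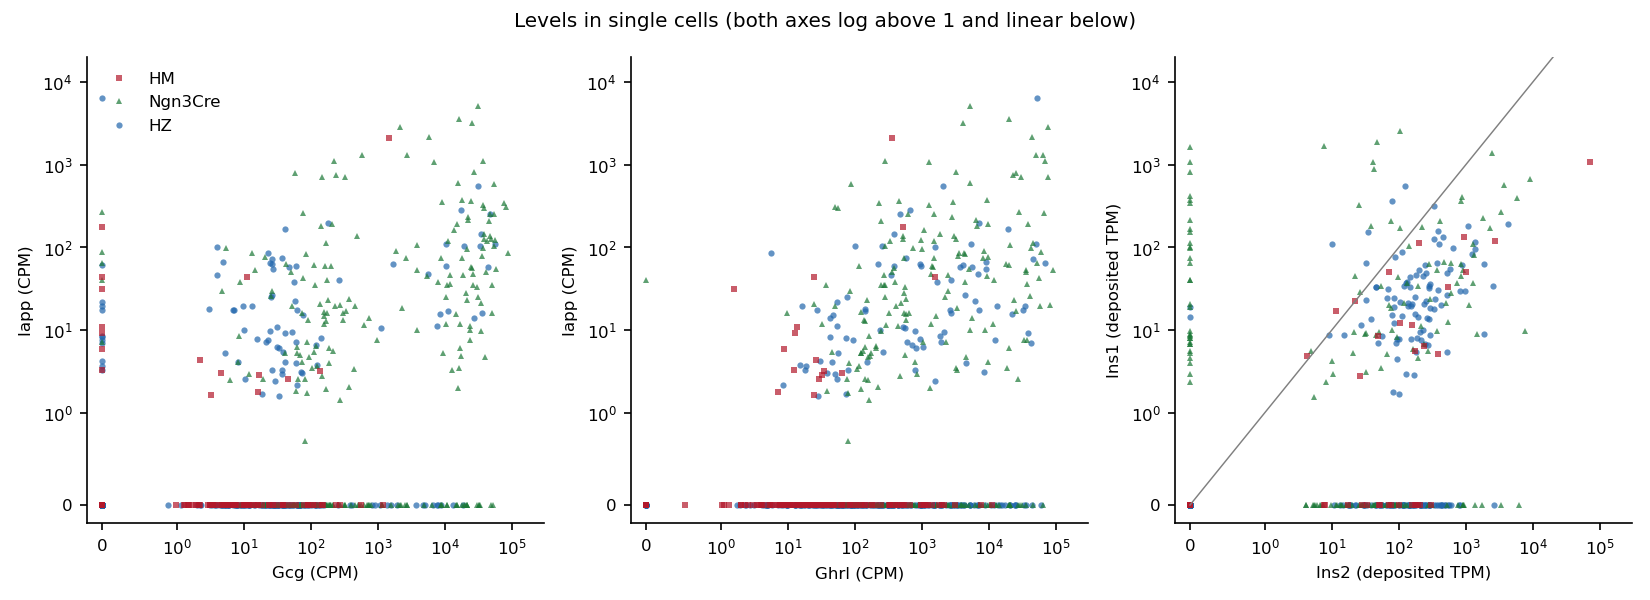
Each point is 1 cell: Iapp against Gcg (CPM), Iapp against Ghrl (CPM), and Ins1 against Ins2 (deposited TPM, with the line of equality), on axes that are log above 1 and linear below, coloured by HM, Ngn3Cre and HZ. Among cells with Ins1 or Ins2 at 50 TPM or more, 23 Ngn3Cre, 5 HZ and 0 HM cells lie on the Ins1 side of the line.

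Other hormones were found with the 3 genes as well. Ghrl, which encodes ghrelin, was at 10 CPM in 5 of 6 HM, 98.3% of Ngn3Cre and 98.0% of HZ Iapp cells, against 62.4, 97.2 and 86.2% of Iapp-negative HM, Ngn3Cre and HZ cells. Pyy, which encodes peptide YY, was in 2 of 6, 100% and 98.0% of Iapp cells, against 24.2, 93.9 and 69.9% of negative ones. Both were thus common in Ngn3Cre and HZ cells with or without Iapp. Ppy, the pancreatic polypeptide gene, was in 0 of 6 HM, 29.2% of Ngn3Cre and 20.0% of HZ Iapp cells, against 10.3% and 6.52% of Iapp-negative Ngn3Cre and HZ cells. Sst, which encodes somatostatin, was in 8.33% of Ngn3Cre and 4.00% of HZ Iapp cells. Ins2 cells held Ghrl in 92.0, 96.0 and 98.2%, Pyy in 68.0, 98.0 and 93.9%, Ppy in 4.00, 23.0 and 11.6%, and Sst in 0, 9.00 and 1.83%, in HM, Ngn3Cre and HZ. Ins1 cells held Ghrl in 87.5, 96.8 and 98.3%, Pyy in 75.0, 100 and 98.3%, Ppy in 12.5, 22.2 and 13.6%, and Sst in 0, 7.94 and 0%.

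The 23 cells with one of the 3 genes at 1000 CPM or more were looked at for alpha and beta cell genes. Mafa, a transcription factor of mature beta cells, was at 10 CPM in 0 of all 830 cells, and Ucn3, a beta cell maturity marker, in 1. Of the 10 cells high in Ins2, 7 held Ins1, 7 Iapp, 2 Nkx6-1, 2 Pdx1 and 1 Slc2a2 (the glucose transporter GLUT2) at 10 CPM. All 10 held Gcg, Ttr and Slc38a5, genes used here as alpha cell markers. Some of these cells were shallow, so that a single read there exceeds 10 CPM. Ngn3Cre cells 18 and 39 at 24 somites had 2 Ins2 reads of 1785 and 24 of 11522. HM cell 4 at 15 somites had 26 of 24941, and HM cell 6 at 24 somites had 25103 reads. Of the 12 cells high in Iapp, 11 held Gcg, 12 Ttr and 12 Slc38a5, while 4 held Nkx6-1, 2 Pdx1 and 1 Slc2a2. Over all 830 cells, 514 held Gcg, 763 Ttr and 754 Slc38a5, while 93 held Nkx6-1, 160 Pdx1 and 37 Slc2a2. Gcg, Ttr and Slc38a5 were thus more frequent than these beta cell genes over all cells as well.

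Named single cells show how far the 3 genes could part. The 3 cells high in Ins1 were all Ngn3Cre. Cell 99 at 24 somites had 1532 CPM of Ins1, 36.1 of Ins2, 3598 of Iapp and 15981 of Gcg. Cell 55 at 27 somites had 1174 CPM of Ins1 from 2326 reads, 17.2 of Ins2 and 799 of Iapp, with 25285 of Ghrl but 57.6 of Gcg, and cell 21 at 27 somites had 1081 CPM of Ins1 and 2.86 of Ins2. In these 3 cells Ins1 was thus the main insulin gene by a wide margin. The highest Iapp level, 6344 CPM, was in HZ cell 68 at 24 somites, which had 52572 CPM of Ghrl and no Gcg read, and the next, 5163 CPM, in Ngn3Cre cell 92 at 24 somites with 31505 CPM of Gcg. The highest Ins2 level, 27049 CPM, was in HM cell 6 at 24 somites, from 679 of only 25103 reads, and this cell also held 12668 CPM of Alb (albumin) and 1474 of Gcg. The next Ins2 level, 3048 CPM, was in Ngn3Cre cell 13 at 24 somites, with 36762 CPM of Gcg and 1125 of Alb.

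Detection of Ins2 fell into runs of the cell numbers in the labels. Of the 2 liver genes counted below, Alb was also found less often at high numbers, while Apoa1 was not. In consecutive runs of 20 cell numbers, an Ins2 read was found in 17, 0, 0 and 0 cells of HM at 24 somites, and in 16, 17, 14, 7, 10, 8, 4 and 1 cells of Ngn3Cre at 24 somites (the last run has 15 cells). In HZ it was found in 18 of the first 20 cells and 0 of the other 41 at 18 somites, in 16, 18, 18, 16, 9, 1, 0 and 0 at 21 somites (the last run has 9), and in 17, 19, 17, 2 and 0 at 24 somites (the last run has 5). Ngn3Cre at 27 somites differed, with 9, 17 and 15 cells in the runs of 20 and 8 of the last 9. In the other pools just given, Ins2-positive cells lay mostly at low numbers. HM at 24 somites held its last Ins2 read in cell 18 of 80.

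The same runs were counted for Ins1, Iapp, the liver genes Alb and Apoa1, and for Neurog3 and Gcg. In HM at 24 somites the runs held 10, 0, 0 and 0 cells with Ins1, 5, 0, 2 and 2 with Iapp, and 6, 2, 3 and 0 with Alb. In HZ at 21 somites they held 4, 6, 11, 8, 2, 0, 0 and 0 cells with Ins1, 5, 4, 11, 4, 1, 1, 0 and 0 with Iapp, and 7, 11, 10, 12, 7, 0, 1 and 0 with Alb. In Ngn3Cre at 24 somites Ins1 was found in 9, 12, 9, 9, 10, 6, 3 and 2 cells, Iapp in 12, 11, 13, 10, 14, 16, 8 and 4, and Alb in 13, 14, 6, 1, 5, 6, 2 and 2. Apoa1 was found in 6, 17, 17 and 15 cells of HM at 24 somites and in 0, 4, 6, 2, 9, 13, 16 and 5 of HZ at 21 somites, opposite to Ins2. In Ngn3Cre at 24 somites it was found in 8, 8, 3, 2, 2, 4, 8 and 11 cells. In HZ at 21 somites the runs held 19, 18, 18, 17, 11, 8, 4 and 7 cells with Neurog3. With Gcg they held 17, 18, 16, 16, 15, 8, 9 and 1, so both were also found less often at high numbers there. In HM at 24 somites the runs held 14, 11, 18 and 17 cells with Neurog3 and 16, 6, 8 and 11 with Gcg. In Ngn3Cre at 24 somites they held 10, 12, 19, 11, 8, 11, 15 and 5 cells with Neurog3. The labels do not say what a cell number stands for, and what sets these runs was not tested.

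**Figure D5:**
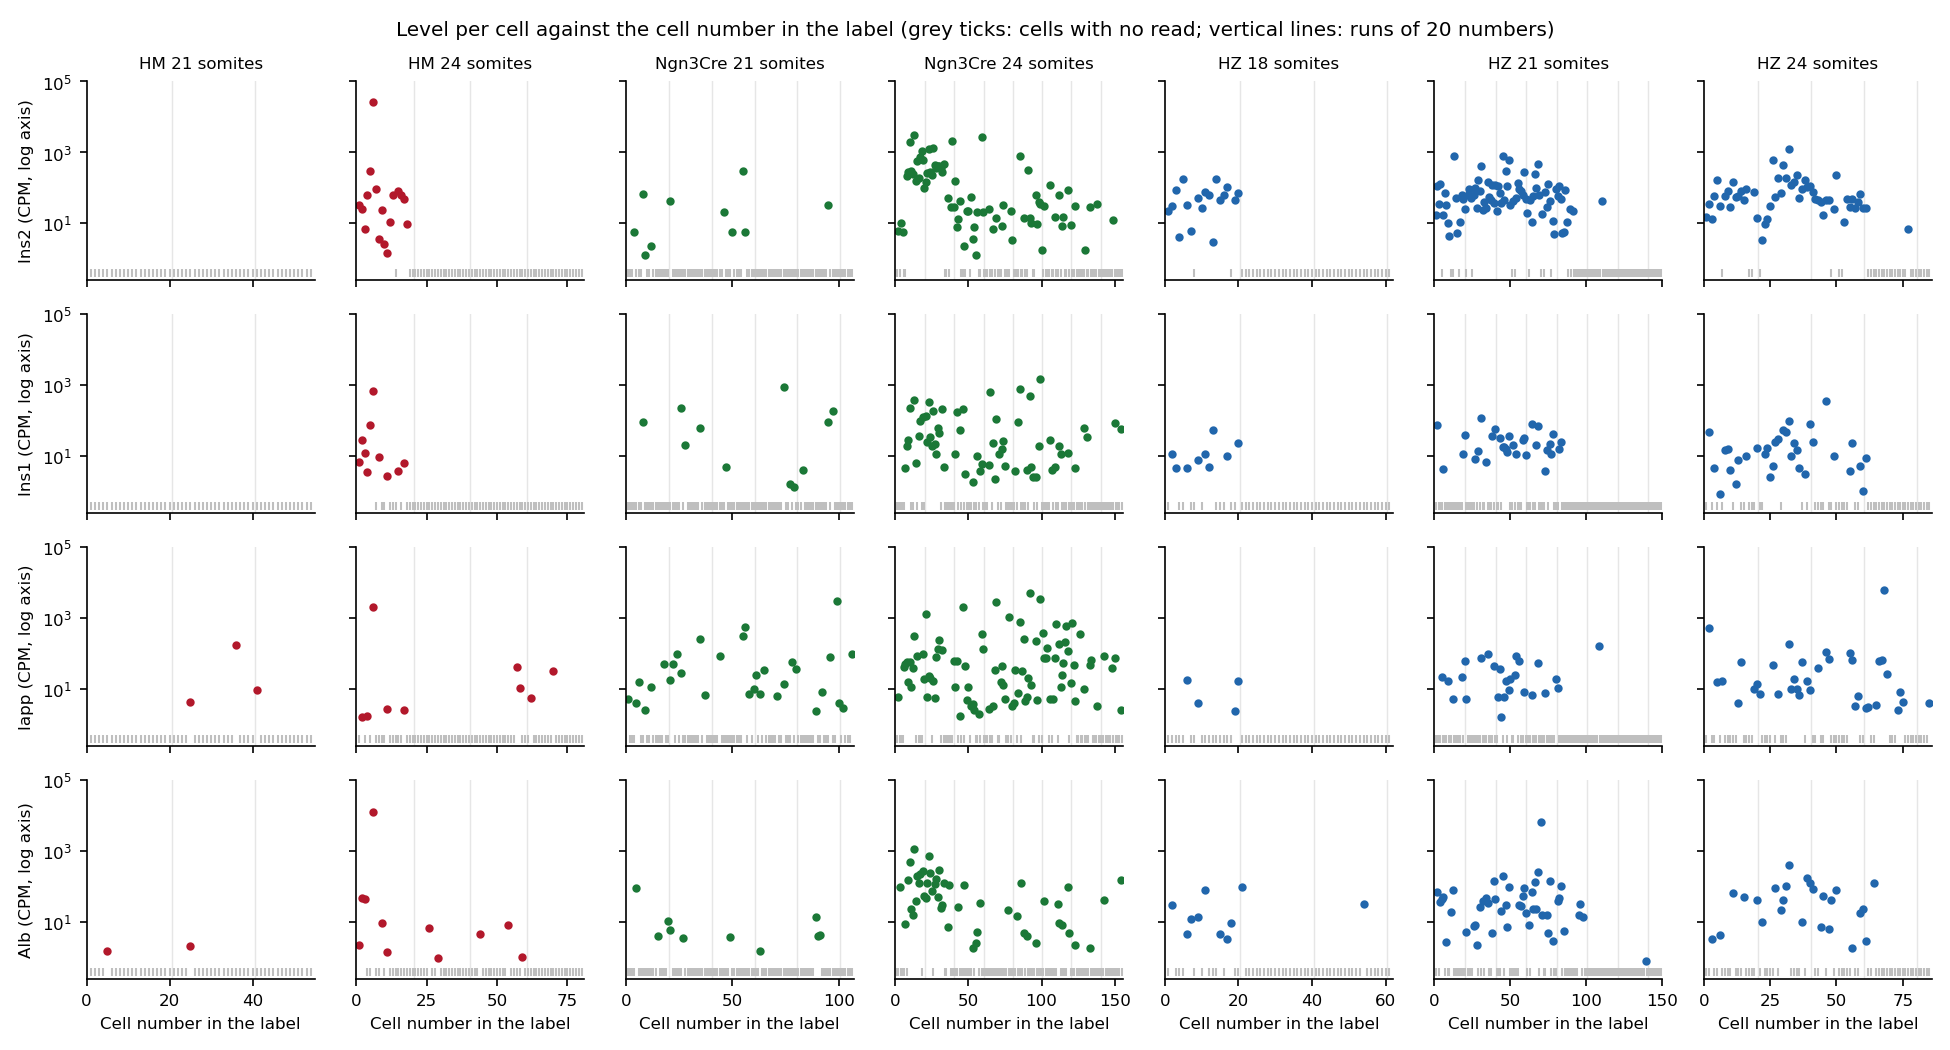
Level (CPM, log axis) of Ins2, Ins1, Iapp and Alb in each cell, by the cell number in the labels, in 7 pools. Grey ticks are cells without a read and vertical lines mark runs of 20 numbers. In HM at 24 somites all 17 cells with an Ins2 read are among the first 20 of 80, and in HZ at 18 somites all 18 are among the first 20 of 61.

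Taken over all stages, cells with a read of Alb or Ahsg, which encode albumin and fetuin-A of the liver, held the insulin genes more often. In such cells Ins2 was at 10 CPM in 7 of 18 HM (38.9%), 50 of 95 Ngn3Cre (52.6%) and 87 of 110 HZ cells (79.1%), against 11.8, 21.0 and 35.6% of HM, Ngn3Cre and HZ cells without either read. Ins1 was in 27.8, 28.4 and 33.6% of them, against 1.96, 15.1 and 10.2% of the others, and Iapp in 5.56, 44.2 and 20.9%, against 3.27, 32.8 and 12.5%. At 27 somites this gap was not seen for Ins2 in HZ, with 10 of 13 cells in both classes, and in Ngn3Cre Ins2 was in 50.0% of cells with such a read and 44.7% without, and Ins1 in 18.2% and 21.3%. Ngn3Cre at 21 somites went the other way for Ins1, in 0 of 13 cells with such a read and 7 of 93 without, and for Iapp, in 7.69% and 19.4%. So did HZ at 24 somites for Iapp, in 22.2% and 25.9%.

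The comparisons of genotypes were repeated on each side of cell number 20. The 2 sides do not hold the same pools. HM at 15 and 18 somites and HZ at 27 somites had under 10 cells above number 20 and entered only the fit of cells 1 to 20. In cells numbered 1 to 20, the log2 fold change of Iapp in HM against HZ was -4.17 ± 1.07 and did not pass (edgeR adjusted p = 0.142), and in cells above 20 it was -3.68 ± 0.54 and passed (edgeR adjusted p = 0.0156). In Ngn3Cre against HZ it was 0.43 ± 0.96 in cells 1 to 20 and 2.50 ± 0.47 above 20 (edgeR adjusted p = 0.987 and 0.0557). Ins1 in Ngn3Cre against HZ changed sign, with -0.66 ± 1.40 in cells 1 to 20 and 2.17 ± 0.37 above 20 (edgeR adjusted p = 0.985 and 0.0512). Above number 20, which among HM pools only those at 21 and 24 somites reached, 0 HM cells held an Ins1 or Ins2 read.

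The genes whose cell-to-cell pattern was most like each of the 3 were found by the Pearson correlation of deviations from the pool mean of log2(CPM + 10), over 704 cells and 13660 genes detected in at least 20 of them. For Iapp these were Gm11716 (r = 0.43), Plet1 (0.43), Mapk10 (0.42), Pcsk2 (0.41), Opcml (0.40) and Nap1l5 (0.40), and Gcg came next at 0.39. For Ins1 they were Ins2 (0.40), Cyp2e1 (0.36), Alb (0.32), Iapp (0.31), Gm12688 (0.29) and Ahsg (0.28). For Ins2 they were Alb (0.51), Ahsg (0.44), Ins1 (0.40), Lin7c (0.28), Slc38a5 (0.26) and Dynlt1c (0.26). Pcsk2, the prohormone convertase that processes both proinsulin and proamylin, was among the 6 nearest to Iapp, and the liver genes Alb and Ahsg were among the 6 nearest to both insulin genes. Cells of a pool share preparation and differ in depth, and the correlations are a description only.

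Of 21 tested factors known to act on the insulin gene, 3 fell and 0 rose in HM against HZ in edgeR (1.28% of all genes fell), 15 had a negative log2 fold change, and the median was -1.35, against -0.08 over all 16478 genes. Pax4, a factor of the beta and delta cell lineages, had 0.101 ± 0.139 CPM in HM pools and 38.6 ± 17.0 CPM in HZ pools (SD, n = 4 each; log2 fold change -7.98 ± 0.58, edgeR adjusted p = 0.000873). Pax6, needed for hormone gene expression, had a log2 fold change of -6.89 ± 0.58 (edgeR adjusted p = 0.00145). The count of 3 was 1 with all 14 pools, 5 without the pools at 18 somites of either HM or HZ, 8 without HM at 24 somites, 7 without a filter, 6 with limma and 11 with DESeq2. None of the 21 passed in Ngn3Cre against HZ, with 5 negative and a median of 0.75, but without Ngn3Cre at 21 somites 11 were negative and the median was -0.021. Pax6 was at 1.44 ± 0.42 (edgeR adjusted p = 0.222).

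Of 21 tested genes of prohormone processing and secretory granules, 9 fell and 0 rose, 20 had a negative value, and the median was -3.23, where 1.28% of all genes fell. The count of 9 was 3 with all 14 pools, 5 with limma, 6 without HZ at 21 or at 24 somites, 13 without a filter on low counts, and 18 with DESeq2. Pcsk1, the other proinsulin convertase, had a log2 fold change of -4.97 (edgeR adjusted p = 0.00515), Resp18, a granule protein, of -9.54 (edgeR adjusted p = 0.00145), Ptprn, a granule membrane protein, of -4.79 (edgeR adjusted p = 0.00156) and Cplx2, a regulator of exocytosis, of -3.23 (edgeR adjusted p = 0.00274). The others that fell were Pcsk2, Ptprn2, Cpe, Vgf and Pam. For Ngn3Cre against HZ 0 of 21 passed and 0 were negative, with a median of 1.17; Cpe, the carboxypeptidase of prohormone trimming, was at 1.41 ± 0.27 (edgeR adjusted p = 0.0895) and Ptprn at 1.56 ± 0.33 (edgeR adjusted p = 0.105).

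Of 18 tested genes of glucose sensing, 3 fell and 0 rose in HM against HZ, where 1.28% of all genes fell. Of the 18, 12 were negative and the median was -1.36. The count of 3 was 1 with all 14 pools and 7 with DESeq2. Among those that fell, Gpr119, a lipid receptor of hormone-secreting cells, had a log2 fold change of -9.38 (edgeR adjusted p = 0.000157) and Abcc8, the sulfonylurea receptor, of -5.50 (edgeR adjusted p = 0.00240). Against HZ, Ngn3Cre pools gave 0 of 18 passing, with 5 negative and a median of 0.84; the smallest p-values were those of Slc2a2 at -5.70 ± 1.26 (edgeR adjusted p = 0.123) and Gpr119 at 1.25 ± 0.28 (edgeR adjusted p = 0.128).

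Among 11 tested other hormones, 2 fell and 0 rose in HM, with 9 negative and a median of -5.46: Ppy had a log2 fold change of -5.46 (edgeR adjusted p = 0.0242) and Cck, cholecystokinin, of -6.32 (edgeR adjusted p = 0.0258). Of all genes, 1.28% fell in this comparison. The count of 2 was 0 with all 14 pools or without HZ at 21 somites, 1 without HM at 21 or 24, HZ at 24, or Ngn3Cre at 21 or 27 somites, 3 with limma, 4 without a filter, and 5 with DESeq2 or without the pools at 18 somites. Gcg was at -6.54 ± 1.65 in HM against HZ (edgeR adjusted p = 0.117) and at 2.80 ± 1.10 in Ngn3Cre against HZ (edgeR adjusted p = 0.359). Of these 11, 0 passed in Ngn3Cre against HZ, with 1 negative and a median of 1.56; Ppy was at 3.16 ± 0.69 (edgeR adjusted p = 0.117) and Sct, secretin, at 1.56 ± 0.43 (edgeR adjusted p = 0.198).

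The receiving side, 13 tested genes of insulin and amylin receptors and peptide breakdown, showed 0 calls in HM against HZ, with 6 negative and a median of 0.23; Igf1r, the IGF1 receptor, was at 0.49 ± 0.16 (edgeR adjusted p = 0.207) and Insrr, the insulin receptor-related receptor, at -2.72 ± 1.35 (edgeR adjusted p = 0.392). Igf1r fell in Ngn3Cre against HZ, the 1 call of 13, at 35.2 ± 7.49 CPM in Ngn3Cre and 69.7 ± 14.9 CPM in HZ pools (SD, n = 3 and 4; log2 fold change -1.08 ± 0.16, edgeR adjusted p = 0.0440), with 8 negative and a median of -0.31. Of all genes, 0.267% fell in Ngn3Cre against HZ. With all 14 pools, with limma, or without any 1 pool other than HM at 15 somites, 0 of the 13 passed. For the change per somite, 0 genes passed in any of the 5 lists. The smallest p-values per list were those of Nkx6-1 at 0.69 ± 0.19 and Mnx1 at -0.20 ± 0.06 among regulators, Ero1lb at -0.26 and Ptprn at 0.43 among processing genes, Slc2a1 at -0.19 and Nnat at 0.16 among glucose sensing genes, Igf1r at 0.07 and Ide at -0.09 among receptors, and Tac1 at 0.60 and Gast at 1.10 among hormones, all as log2 change per somite.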

How the data were processed

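Per the submitters' processing notes, the authors used FastQC 0.11.9, Trimmomatic 0.39 and HISAT2 2.1.0 with GRCm38 (mm10). The sources used here give neither the counting tool, its annotation and strand setting, nor the use of molecular identifiers or cell filters. The deposited count table holds whole reads per gene and cell, and the deposited TPM table holds length-corrected values per cell that the authors computed. In the median cell 57.2% of nonzero counts were even numbers. Intervals and floors (3 reads) therefore cover counting error only, and reads are not independent molecules.

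CPM was computed here per cell or pool from the counts. No cell was removed and no doublet caller was run. Genotype was compared with stage as a factor, and somite number was fitted with genotype, on counts summed per genotype and stage over pools of at least 10 cells. The test was edgeR 4.0.16 quasi-likelihood (R 4.3.3, TMM scaling, filterByExpr by genotype, adjusted p under 0.05 over all tested genes), tested on simulated data, with 4 residual degrees of freedom for genotype and 7 for the slope.

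Alternatives were size factors, DESeq2 1.42.0, no filter, all 14 pools, cells of at least 100000 reads, limma 3.58.1 on log2(mean deposited TPM + 1), and leaving out each pool. Splits at cell number 20, cells without Alb and Ahsg reads, and leaving out the HM cell highest in Ins2 were chosen after seeing the data. Above number 20, HM at 15 and 18 somites and HZ at 27 somites had under 10 cells and were not in the fit. Genes named are the 3 members, Gcg, Neurog3, Ghrl, Sst, Ppy and Pyy, up to 4 called genes with the smallest p per list and comparison (otherwise 2), and the 6 nearest genes; any other was named after its values were seen. Some genes that these rules name are not reported here. The lists were insulin gene regulators, prohormone processing and granule genes, glucose sensing genes, insulin and amylin receptors and breakdown, and other hormones. Members and lists were chosen with earlier results of these data known. Sequences came from GENCODE vM21 and RefSeq (GRCm38.p6) and were aligned with Biopython 1.88. Tables and intervals were made with pandas 2.3.3 and scipy 1.17.1, and figures with matplotlib 3.10.9.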

Additional observations from a re-analysis of the deposited data

Results flagged for a closer look

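Ins2 in Ngn3Cre against HZ went one way at some stages and the other way at another. The log2 ratio of unscaled pooled CPM was -4.66 at 21 somites (1.49 CPM in Ngn3Cre, 37.7 CPM in HZ), 0.83 at 24 somites (102 CPM in Ngn3Cre, 57.2 CPM in HZ) and -1.51 at 27 somites (21.9 CPM in Ngn3Cre, 62.4 CPM in HZ). With 1 pool per genotype and stage this difference between stages was not tested. In Ngn3Cre at 24 somites the first 3 runs of 20 cells held 428, 264 and 189 CPM of Ins2 and the later runs 1.01 to 34.8 CPM.

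Pools left out of the tests for having under 10 cells held insulin reads above the HZ pool of their stage. Ins1 stood at 30.04 CPM in the 4 HM cells at 27 somites, against 22.4 CPM in HZ. Of its 53 reads, 41 came from 1 cell. Ins2 stood at 130.9 CPM in the same HM pool, with 4 of 4 cells at 10 CPM or more, against 62.4 CPM in HZ. Ins2 stood at 49.3 CPM in the 3 Ngn3Cre cells at 18 somites, all 15 reads in 1 cell, against 15.4 CPM in HZ. Among 12 groups of 4 pools examined for a pool standing apart from the others, 0 passed Dixon's critical value of 0.829, where chance passes about 5% of groups.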

How the results depend on the processing

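The Iapp fall in HM against HZ passed in 17 of 20 alternatives. It missed the threshold with all 14 pools (log2 fold change -3.54, edgeR adjusted p = 0.144), in cells numbered 1 to 20 (-4.17, edgeR adjusted p = 0.142) and with limma on TPM (-1.34, limma adjusted p = 0.106). Ins1 in HM passed with DESeq2 (-5.14, adjusted p = 0.00538) and without a filter (-4.08, edgeR adjusted p = 0.0480). Ins2 in HM passed with DESeq2 (-7.83, adjusted p = 0.000573). In cells above 20, Ins1 was at -11.25 (edgeR adjusted p = 0.00184) and Ins2 at -15.38 (edgeR adjusted p = 0.0250). All HM pools were at 0 there for both genes. That split was chosen after seeing the data, so the direction of these 2 values was fixed and they lend no support. In Ngn3Cre against HZ, Iapp passed with DESeq2 (2.22, adjusted p = 1.53e-05), without a filter (2.19, edgeR adjusted p = 0.0298) and in cells of at least 100000 reads (2.51, edgeR adjusted p = 0.0404), while Ins1 was at -0.66 in cells 1 to 20. The change of Ins2 per somite was -0.028 in cells of at least 100000 reads, -0.045 without the HM cell highest in Ins2, and -0.062 without HM at 24 somites. Leaving out 1 pool each gave -0.062 to 0.47 for that slope, 0.10 to 0.57 for Iapp and 0.23 to 0.41 for Ins1, and in HM against HZ -10.39 to -3.14 for Ins1 and -12.49 to -4.09 for Ins2. The cause of these changes was not tested.

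Counts of called genes depended strongly on the setting. For HM against HZ 227 genes were called, 1514 with DESeq2, 26 with all 14 pools, 111 in cells 1 to 20, 428 above 20, and 59 to 262 with 1 pool left out, the lowest without HZ at 21 somites (59), HZ at 24 (82) and HM at 21 (101), then Ngn3Cre at 21 (123) and 27 (136) and HZ at 27 (138). For Ngn3Cre against HZ 44 were called, 1039 with DESeq2, 105 without a filter, 2 with all 14 pools, 0 with limma and in cells 1 to 20, 214 above 20, and 0 to 62 with 1 pool left out (0 without HM at 24, HZ at 21 or Ngn3Cre at 21 somites, and 7 without HZ at 24). For the slope 0 were called, 353 with DESeq2, 75 with all 14 pools, and 0 to 2 with 1 pool left out.

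Shares at 21 and 24 somites moved with the threshold. At 1 read or more they were 8.96% in HM, 45.6% in Ngn3Cre and 26.5% in HZ for Iapp, 27.2% in Ngn3Cre and 27.4% in HZ for Ins1, and 33.3% in Ngn3Cre for Ins2. At 50 CPM they were 19.2% in Ngn3Cre and 7.69% in HZ for Iapp, 10.3% and 3.85% for Ins1, and 14.9% and 29.9% for Ins2. At 10 TPM, Iapp was in 39.5% of Ngn3Cre and 22.6% of HZ cells, and thinned in 22.7% of HZ cells. In cells 1 to 20 the share was 25.0% in HZ for Iapp, 10.0% in HM for Ins1, and 30.0% in HM, 37.5% in Ngn3Cre and 77.5% in HZ for Ins2, and above 20 it was 0% in HM for Ins1 and Ins2. Without Alb and Ahsg reads it was 0% in HM, 13.8% in Ngn3Cre and 11.8% in HZ for Ins1, and 14.8% in Ngn3Cre and 38.2% in HZ for Ins2. Of cells at 1000 CPM of Gcg, at 50 CPM 42.3% of Ngn3Cre and 35.5% of HZ held Iapp, 9.68% of HZ held Ins1, and 22.5% of Ngn3Cre and 41.9% of HZ held Ins2, and at 1 read 38.7% of Ngn3Cre and 61.3% of HZ held Ins1 and 54.1% of Ngn3Cre held Ins2.

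No paired analysis was possible because the numbers in the labels count cells within a pool and do not link pools. The number of cells limits the zeros of Ins2 in HM at 18 and 21 somites to shares of up to 19.5% and 6.60%.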

Other observations

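Counts of cells with Xist at 10 CPM and Y-linked genes (Ddx3y, Eif2s3y, Uty and Kdm5d together) below it, or the reverse, varied along the cell numbers within pools. In HM at 15 somites 0 of 16 cells held Xist alone and 14 held Y-linked reads alone. In HM at 24 somites the 4 runs of 20 cells held 16, 9, 3 and 0 cells with Xist alone and 3, 8, 14 and 17 with Y-linked reads alone, where 17, 0, 0 and 0 held an Ins2 read. In HZ at 21 somites the run of cells 41 to 60 held 20 with Xist alone and 0 with Y-linked reads alone, and that of cells 101 to 120 held 0 and 18, where 18 and 1 held an Ins2 read. In HZ at 24 somites the 5 runs held 0 cells with Xist alone and 19, 17, 17, 18 and 4 with Y-linked reads alone, where 17, 19, 17, 2 and 0 held an Ins2 read, so Ins2 detection also differed between runs with the same Xist and Y pattern.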
